A study of Mus musculus with 23 samples.

Results

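PyMT tumors that lacked IL-38 and were exposed to an antibody against the γδ T cell receptor (TCR) were compared with PyMT tumors of WT mice exposed to control IgG. The 2 groups held 4 libraries each, 8 of the 23 libraries of the series, and were chosen by their labels. All mice were female and carried the PyMT transgene, the polyoma virus middle T oncoprotein, which drives mammary carcinoma, on a C57BL/6 background. The IL-38 KO + anti-γδTCR mice lacked IL-38 in every cell of the body and received clone UC7-13D5, a neutralizing antibody against the receptor. The paper describes the antibody as a blocker of signaling that does not deplete the cells. It reports fewer γδ T cells in tumors of mice that received it. The paper presumes less proliferation after activation, because spleen and blood levels changed little. The WT + IgG mice received polyclonal Armenian hamster IgG. Antibodies were injected intraperitoneally from 13 weeks of age for 5 weeks, with 500 µg first and then 200 µg on 4 further occasions. RNA came from whole dissociated tumors, so that all cell types of the tumor contributed, and 500 ng per tumor was sequenced from the 3′ end of the transcripts. Values are normalized counts, the reads of a gene divided by 1 size factor per library, set here over these 8 libraries. Genotype and antibody both differ between the groups, and no library of WT mice with anti-γδTCR was analysed here. The 4 libraries of IL-38 KO mice with IgG, which share the genotype with one group and the antibody with the other, are therefore given beside them on the same scale.

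IL-38, the product of Il1f10, belongs to the IL-1 family of cytokines and acts as a receptor antagonist that dampens inflammation. γδ T cells are lymphocytes of barrier tissues and tumors that respond quickly, are a source of IL-17 and carry a receptor of a γ and a δ chain. In the Notch pathway, a ligand of the Delta or Jagged type on one cell activates a Notch receptor on its neighbor, whose inner part then moves to the nucleus and switches on genes such as Hes1. Type 1 dendritic cells (cDC1) present tumor antigens to CD8+ T cells and are attracted by the chemokine Xcl1. The question of the comparison was which genes lie at the WT level in IL-38 KO tumors with the γδ TCR blocked, and which do not.

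The libraries differed in more than genotype and antibody. The column names carry sample-sheet numbers, which were 12 to 15 for WT + IgG, 16 to 19 for IL-38 KO + IgG and 20 to 23 for IL-38 KO + anti-γδTCR. The name of IL-38 KO + anti-γδTCR replicate 3 alone also carries the mark "rep", which the labels do not explain. The IL-38 KO + anti-γδTCR libraries held 6273049 to 8794202 reads on genes and the WT + IgG libraries 11387847 to 13022512 (p = 0.0286 in a two-sided exact permutation test, which 4 against 4 libraries cannot go below, 0.0429 adjusted over 12 library measures). Processed pseudogenes, intronless copies of messenger RNAs, took 1.31% to 1.98% of the reads of IL-38 KO + anti-γδTCR and 0.120% to 0.164% of those of WT + IgG (exact permutation p = 0.0286, adjusted 0.0429). IL-38 KO + IgG replicate 4, which carries sheet number 19, stood with the former at 1.46% and 8620899 reads, while the other 18 libraries of the series lay between 0.0943% and 0.191%. On the first principal component, which held 63.0% of the variance, this library scored 85.4, next to 87.4 to 116 for IL-38 KO + anti-γδTCR, and the other 7 libraries with IgG scored −76.3 to −63.6. The share of mitochondrially encoded reads was 5.08% ± 1.12 (SD, n = 4) against 5.55% ± 0.544 (SD, n = 4) (exact permutation p = 0.514). Genotype, antibody, depth and sheet number cannot be told apart between the 2 groups. IL-38 KO + IgG replicate 4 is a single library, and its value is given beside the genes described sample by sample where it stands apart from its group, and not beside every result.

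**Figure D1:**
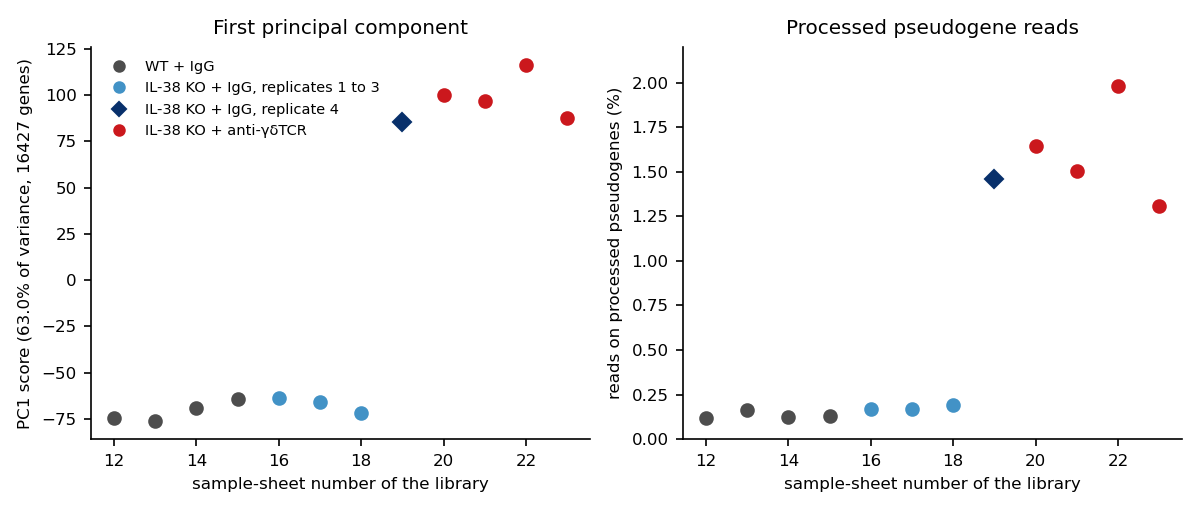
Score on the first principal component (left) and reads on processed pseudogenes in percent (right) against the sample-sheet number of the library, 1 point per library. IL-38 KO + IgG replicate 4 (sheet number 19, PC1 85.4, 1.46%) stands with the 4 IL-38 KO + anti-γδTCR libraries and apart from the other 7 libraries with IgG.

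Of 16427 genes tested with limma, 3266 (19.9%) were called, that is, differed between the groups at an adjusted p under 0.05. Of these, 1867 genes (11.4% of those tested) were higher in IL-38 KO + anti-γδTCR and 1399 (8.52%) were lower. At the WT level, in the sense that the 95% confidence interval of the fold change lay inside 2-fold in both directions, were 9141 genes (55.6%). Of these, 735 were also called, with small differences, and 8406 (51.2%) were not. The remaining 4755 genes (28.9%) were neither, and their level cannot be placed with 4 libraries a group. For 888 higher and 408 lower genes the whole interval lay beyond 2-fold. The values of the groups did not overlap in 3859 genes (23.5%). In only 911 genes (5.55%) did all 4 IL-38 KO + anti-γδTCR libraries lie outside the range of all 8 libraries with IgG, and 751 of them were called, 400 higher and 351 lower. The median log2 fold change over all tested genes was 0.03.

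Most called genes were also displaced in IL-38 KO + IgG replicate 4. On a scale where the WT + IgG mean is 0 and the IL-38 KO + anti-γδTCR mean is 1, the median over called genes was 0.88 in this library and 0.17, 0.13 and 0.00 in IL-38 KO + IgG replicates 1 to 3. Among the lower genes these 3 replicates stood at 0.34, 0.26 and 0.04, and among the higher genes at 0.00 each. A total of 2648 called genes (81.1%) lay at 0.5 or more in replicate 4, compared with 465 (14.2%) for the mean of replicates 1 to 3. With sheet numbers of 19 and above as a term beside the group in a limma fit of the 12 libraries, 0 genes (0%) were called. In that fit 1720 genes had an unadjusted p under 0.05, the smallest adjusted p was 0.135, and edgeR and DESeq2 were not run on it. The term rests on replicate 4 alone, as the only library with IgG on such a number. The group difference is therefore estimated less precisely in that fit, and a lost call there does not show that a difference is absent.

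**Figure D2:**
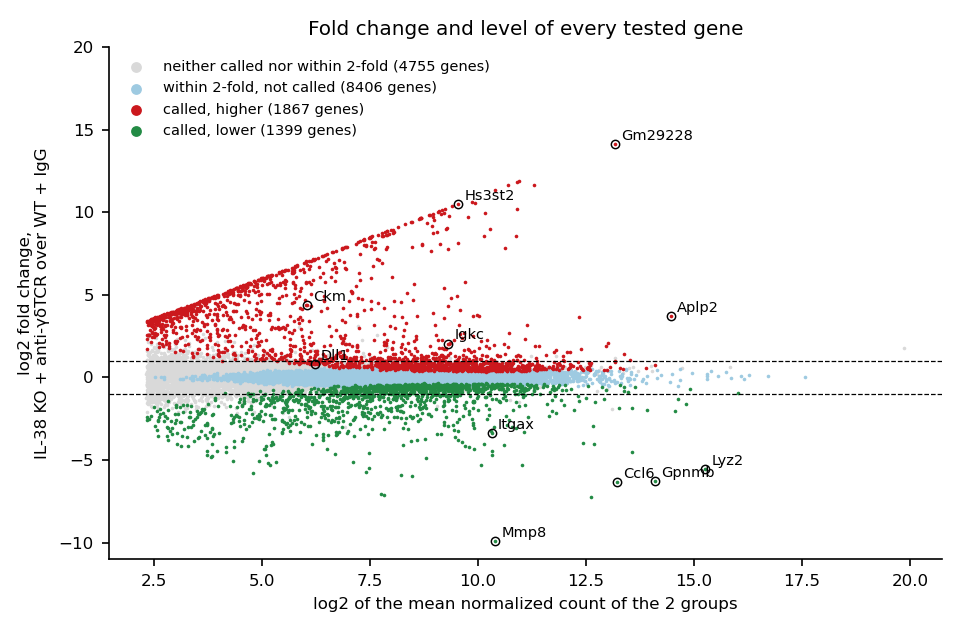
Log2 fold change of IL-38 KO + anti-γδTCR over WT + IgG (vertical) against the log2 of the mean normalized count of both groups (horizontal), 1 point per tested gene, with dashed lines at 2-fold. Red and green points are the 1867 higher and 1399 lower called genes, and light blue points the 8406 genes inside 2-fold that were not called. The straight upper edge is formed by genes with 0 reads in all WT + IgG libraries.

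Among the 31 gene lists examined, the macrophage list held the most lower genes. Of its 20 genes, 14 were called lower and 0 higher, compared with 8.52% lower among all tested genes, and the list's median log2 fold change was −0.83 (−0.45 with the sheet term). Gpnmb, a glycoprotein of lipid-laden macrophages, had normalized counts of 34510, 47726, 32407 and 23521 in WT + IgG and of 268, 320, 370 and 1041 in IL-38 KO + anti-γδTCR. The groups did not overlap, and IL-38 KO + IgG stood at 23617 to 31282 in replicates 1 to 3 and at 1119 in replicate 4. The log2 fold change was −6.29 (SE 0.36, limma adjusted p = 1.18e-07), a 78.4-fold lower level. Lyz2, the lysozyme of myeloid cells, had 74496, 104360, 73081 and 55046 against 909, 807, 2322 and 3603, with 4695 in IL-38 KO + IgG replicate 4, so that all 4 libraries with anti-γδTCR were below all 8 with IgG (log2 fold change −5.57, SE 0.42, adjusted p = 1.12e-06). Trem2, a lipid-sensing receptor, and Cd68, an endosomal glycoprotein, changed by −3.77 (SE 0.26) and −3.01 (SE 0.22) on the log2 scale (adjusted p = 4.99e-07 and 1.00e-06).

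Of the same list, 6 genes were inside 2-fold, 1 of them also called. C1qa, which encodes a chain of complement C1q made by tissue macrophages, had 3360, 3930, 3718 and 3268 in WT + IgG and 3345, 3431, 2728 and 3508 in IL-38 KO + anti-γδTCR. The 2 sets of values overlapped, with a log2 fold change of −0.14 (95% interval −0.42 to 0.14). The other chains of C1q, C1qb and C1qc, named after their values were seen, were called lower (−1.64 and −0.73, adjusted p = 6.8e-05 and 0.00355). Cd14, a co-receptor for lipopolysaccharide, and the protease Ctsk also had intervals inside 2-fold (−0.31 to 0.87 and −0.85 to 0.48). The summed normalized counts of the 20 genes ranged from 148750 to 252760 in WT + IgG and from 35623 to 48654 in IL-38 KO + anti-γδTCR, and IL-38 KO + IgG replicate 4 had 37412. In bulk tumor RNA, fewer cells of a type and less RNA per cell cannot be told apart. The part of this shift in the lysosomal, chemokine and dendritic cell values below was not tested.

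The 12 lower protein-coding genes with the smallest p among those whose groups did not overlap included Gpnmb and several other genes of myeloid cells. Itgax, which encodes the integrin CD11c of dendritic cells and macrophages, had 2296, 3086, 2172 and 1758 in WT + IgG and 215, 220, 209 and 227 in IL-38 KO + anti-γδTCR. These values were below those of all 8 libraries with IgG, the lowest of which was 287 in IL-38 KO + IgG replicate 4 (log2 fold change −3.38, SE 0.16, adjusted p = 1.70e-08). Csf2rb, the shared receptor chain for GM-CSF and IL-3, had 2307, 3454, 2314 and 1743 against 74.8, 77.7, 76.2 and 154 (−4.70, SE 0.25, adjusted p = 6.34e-08). Cybb, the catalytic subunit of the phagocyte NADPH oxidase, was 7.66-fold lower and its partner Rac2, a small GTPase of blood cells, 12-fold lower. Lgals3, a lectin abundant in macrophages, was 22.8-fold lower, Wfdc17 40.0-fold and Atp6v0d2, a proton pump subunit, 39.3-fold. The receptor Il7r had 1354 to 2503 in WT + IgG and 58.0 to 137 in IL-38 KO + anti-γδTCR, a 19.9-fold lower level, Cd52 was 5.28-fold lower, the immunoglobulin receptor chain Fcer1g 8.15-fold and the exchange factor Cyth4 7.69-fold. Over the 12 genes IL-38 KO + IgG replicate 4 stood at 0.68 (Wfdc17) to 1.09 (Cd52) on the scale from WT + IgG to IL-38 KO + anti-γδTCR.

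Outside the protein-coding genes, the smallest p among lower genes belonged to Clec7a, the β-glucan receptor of myeloid cells, which the annotation used here lists as a polymorphic pseudogene. It had 10584, 14031, 9760 and 7181 in WT + IgG and 608, 611, 673 and 734 in IL-38 KO + anti-γδTCR (log2 fold change −3.95, SE 0.18, adjusted p = 1.35e-08), with 659 in IL-38 KO + IgG replicate 4. The antisense gene Gm44206 had 47.5 to 66.6 in WT + IgG and 0 reads in every IL-38 KO + anti-γδTCR library. It was at least 64.1-fold lower, with the limit set at 3 counts over those 4 libraries. All such limits given here compare reads per total reads of a group and not normalized counts. AI662270 was 5.10-fold lower. Whether reads were assigned by strand is not given in the sources used here, so Gm44206 cannot be told from a gene on the opposite strand.

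Lysosomal genes were lower in part. Of 19 tested of 20 genes in a lysosome list, 12 were called lower and 0 higher (8.52% of all tested genes were lower), and the median was −0.82 on the log2 scale, and 0.09 with the sheet term. Ctsd, the aspartic protease cathepsin D, had 39240, 52494, 35138 and 29345 in WT + IgG and 8792, 9512, 8871 and 10547 in IL-38 KO + anti-γδTCR. The groups did not overlap, and IL-38 KO + IgG replicate 4 stood among the latter at 9000 (log2 fold change −2.02, SE 0.20, adjusted p = 1.27e-05). Gla, the α-galactosidase A that removes terminal sugars from glycolipids, had 254 to 400 against 56.0 to 103 (−2.16, SE 0.22, adjusted p = 1.46e-05). The cysteine proteases Ctsb and Ctsl fell by 1.84 and 1.38 on the log2 scale (adjusted p = 4.16e-06 and 4.69e-05). Lamp2, a glycoprotein of the lysosomal membrane, and Npc1, which exports cholesterol, stayed inside 2-fold (intervals −0.33 to 0.23 and −0.42 to 0.19). The mean log2 level of the list relative to WT + IgG was −1.06 in IL-38 KO + IgG replicate 4 and −1.0 to −0.78 in IL-38 KO + anti-γδTCR.

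Many lysosomal genes share a palindromic element, TCACGTGA, in their promoters, which is known as a binding site of the TFEB and MITF family of factors. The 250 bases before the gene start were searched for it in the RefSeq promoters of GRCm38.p6. As the element is its own reverse complement, 1 search covers both strands. It was present in 5 of the 16 lysosome-list promoters in the table (31.2%) and in 0 of 15 of the macrophage list, compared with 0.907% of all 27025 promoters and 1.73% of the 10769 tested protein-coding genes with a promoter. The element was in 1.68% of the promoters of lower and 2.24% of those of higher protein-coding genes. The 5 matching windows are shown with the element in capitals, because their genes span the range of the list. Ctsa, Mcoln1 and Atp6v1a were named for this match, after their values were seen.
Ctsa: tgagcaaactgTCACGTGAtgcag
Ctsd: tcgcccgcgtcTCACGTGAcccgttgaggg
Mcoln1: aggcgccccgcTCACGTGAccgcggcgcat
Atp6v1a: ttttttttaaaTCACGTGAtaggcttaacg
Gla: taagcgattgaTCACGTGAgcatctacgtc
Each reads from 5′ to 3′ on the strand of its gene, and the element begins 13, 99, 46, 132 and 228 bases before the gene start, in the order above. The windows are chr2:164833749-164833772 on the plus strand, chr7:142387908-142387937 on the minus strand, chr8:3500462-3500491 on the plus strand, chr16:44139373-44139402 on the minus strand and chrX:134601215-134601244 on the minus strand. The genes with these windows did not move alike. Ctsd and Gla changed by −2.02 and −2.16 on the log2 scale, the carboxypeptidase Ctsa by −0.82 (SE 0.15) and the proton pump subunit Atp6v1a by −0.71 (SE 0.14), while the cation channel Mcoln1 lay inside 2-fold at 0.10 (95% interval −0.30 to 0.51). A match is a description of letters and no evidence of binding in these tumors.

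More chemokine genes were lower than higher. Of 28 tested, 8 were lower and 1, Ccl20, was higher (8.52% and 11.4% of all tested genes), 7 were inside 2-fold (55.6%) and 12 were neither. The myeloid chemokine Ccl6 had 18638, 25914, 17529 and 13313 in WT + IgG and 190, 126, 145 and 748 in IL-38 KO + anti-γδTCR (log2 fold change −6.34, SE 0.45, adjusted p = 7.32e-07). All 4 values were below those of the 8 libraries with IgG, among which IL-38 KO + IgG replicate 4 had 980. Ccl9, from the same gene cluster, was 17-fold lower, and Ccl3, which attracts leukocytes, 10.7-fold lower. Ccl22, which attracts regulatory T cells, had 46.7 to 89.3 against 0 to 4.41. Cxcl9, an interferon-γ inducible T cell attractant, had 164, 132, 149 and 156 against 227, 223, 152 and 188, which overlapped, and stayed inside 2-fold (log2 fold change 0.38, interval −0.00 to 0.76). Cxcl12, from stromal cells, had a log2 fold change of −0.02 (interval −0.44 to 0.40).

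Genes with higher levels fell into 2 kinds. The first were genes with 0 reads in all WT + IgG libraries, of which 336 were called, 282 of them processed pseudogenes and 35 protein-coding. Of the 336, 281 also had 0 reads in IL-38 KO + IgG replicates 1 to 3, and 335 had a read in replicate 4. Hs3st2, which encodes an enzyme that sulfates heparan sulfate, had 0 in all WT + IgG libraries and in IL-38 KO + IgG replicates 1 to 3, and 1216 in replicate 4. In IL-38 KO + anti-γδTCR it had 1412, 1326, 2048 and 1150, at least 2264-fold higher than the limit of 3 counts over the 4 WT + IgG libraries (adjusted p = 1.48e-10). Cpvl, a carboxypeptidase, was at least 1081-fold higher, with 537 to 974 in IL-38 KO + anti-γδTCR and 600 in IL-38 KO + IgG replicate 4. Of the predicted genes, Gm29228 had 19254, 15547, 25017 and 13732 after 0 in every WT + IgG library, with 15839 in IL-38 KO + IgG replicate 4 (at least 28004-fold higher, adjusted p = 1.31e-12). Gm2522, Gm13935, Btg1-ps2 and Gm5426 showed the same arrangement, at least 5791-, 5093-, 964- and 307-fold higher.

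Processed pseudogenes were higher as a class. Of 796 tested, 602 (75.6%) were called higher and 3 lower, compared with 1182 higher and 1336 lower of 13749 protein-coding genes. Their median log2 fold change was 3.91, and 4.29 when the 285 of them with 0 reads in a group were set at their bound, which compares reads per total reads. In IL-38 KO + IgG replicate 4 the position on the scale above had a median of 0.96 over the called processed pseudogenes and 0.83 over the called protein-coding genes. A processed pseudogene is near-identical to its parent gene, so its reads are uncertain. The non-coding transcript Gm42418, chosen after its values were seen, had 438290, 552810, 319450 and 380120 in WT + IgG, 1077200 in IL-38 KO + IgG replicate 4 and 1381800, 1170900, 2282900 and 1122900 in IL-38 KO + anti-γδTCR. It was not called by limma (log2 fold change 1.78, SE 0.68, adjusted p = 0.0904) although the groups did not overlap, and was called by edgeR (adjusted p = 0.00072) and DESeq2 (adjusted p = 1.5e-12). It took 11.6% to 20.1% of all reads in the one group and 3.58% to 5.70% in the other.

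The second kind were genes with reads in WT + IgG. Aplp2, a membrane protein related to the amyloid precursor protein, had 2485, 3121, 3522 and 3354 in WT + IgG and 44389, 36422, 55992 and 31323 in IL-38 KO + anti-γδTCR. The groups did not overlap, and IL-38 KO + IgG replicate 4 had 34999, within the range of the latter (log2 fold change 3.73, SE 0.20, adjusted p = 5.81e-08). Atp1b1, the β subunit of the sodium pump, had 631, 655, 999 and 753 against 9499, 7890, 13387 and 7424 (3.63, SE 0.20, adjusted p = 7.71e-08). Plk3, a stress-responsive kinase, was 13.1-fold higher, Bri3 15.1-fold, Rtn4r, a receptor for myelin inhibitors in neurons, 35.0-fold, Pnkd 8.86-fold and the glycosyltransferase Mgat4b 8.88-fold. The protein-coding gene Gm11983 had 0 to 1.55 in WT + IgG and 187 to 270. In these 8 genes IL-38 KO + IgG replicate 4 stood at 0.93 to 0.97 on the scale from WT + IgG to IL-38 KO + anti-γδTCR, and replicates 1 to 3 had at most 4481 for Aplp2 and 67.2 for Plk3.

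**Figure D3:**
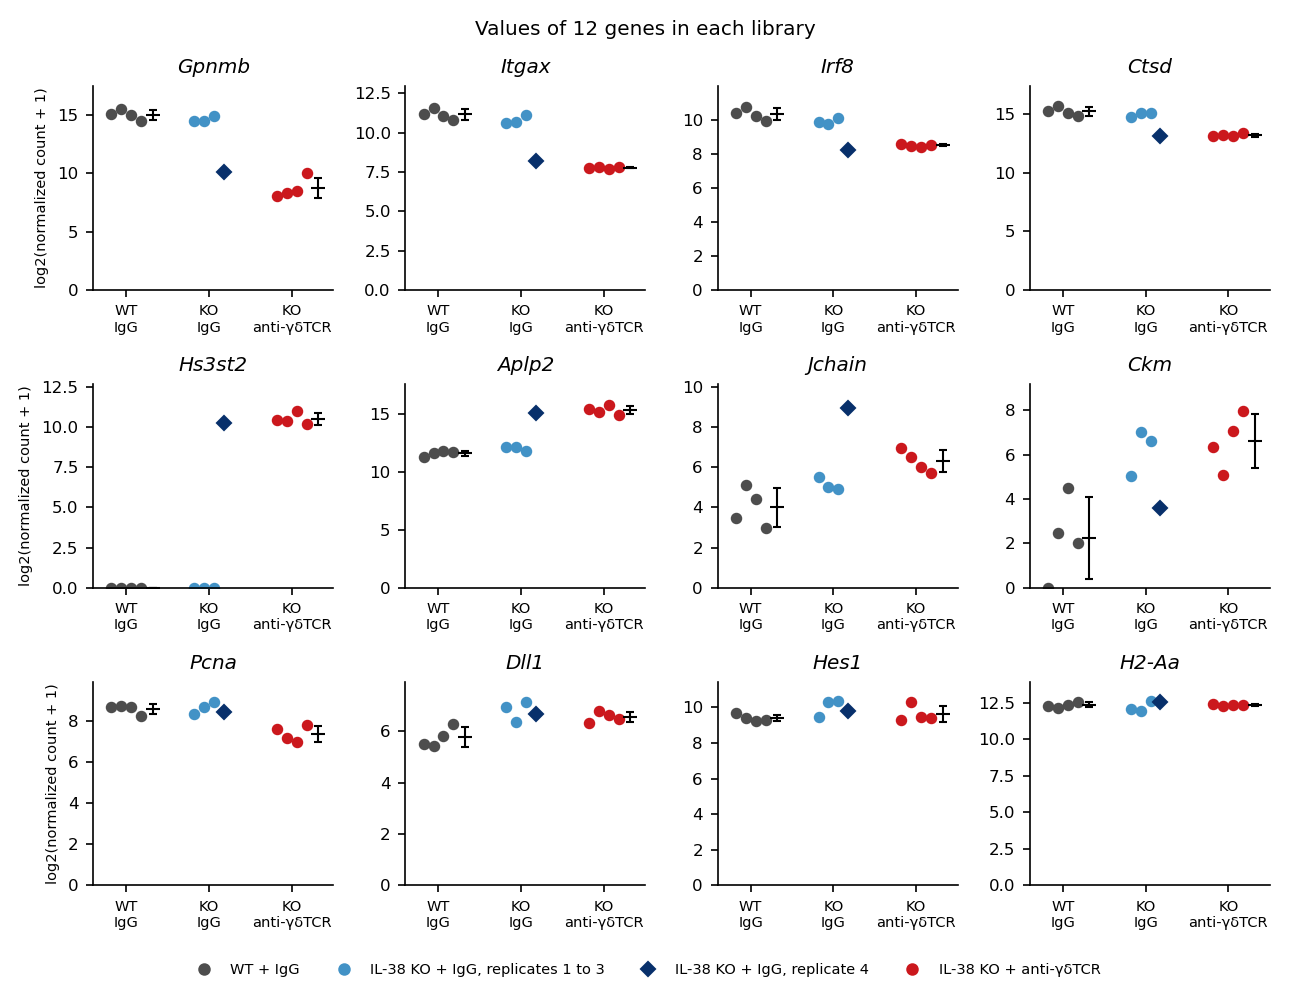
Log2(normalized count + 1) of 12 genes in each library, with the mean and SD of the 4 WT + IgG and the 4 IL-38 KO + anti-γδTCR libraries as black bars. IL-38 KO + IgG replicate 4 (diamond) lies with IL-38 KO + anti-γδTCR for Gpnmb, Itgax, Irf8, Ctsd, Hs3st2 and Aplp2, above every other library for Jchain, and with the WT + IgG libraries for Ckm and Pcna.

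Some genes of proliferating cells were lower, and here IL-38 KO + IgG replicate 4 was not. Of 26 cell cycle genes, 8 were called lower and 0 higher (8.52% and 11.4% of all tested genes), the median log2 fold change was −0.52, and all 26 had a negative value. Pcna, the sliding clamp of DNA replication, had 406, 425, 415 and 299 in WT + IgG, 328, 403, 483 and 341 in IL-38 KO + IgG and 194, 142, 123 and 220 in IL-38 KO + anti-γδTCR. All 4 values with anti-γδTCR were below the 8 with IgG (log2 fold change −1.21, SE 0.20, adjusted p = 0.000934). Bub1, a kinase of the spindle checkpoint, had 72.3, 85.5, 72.7 and 58.9 in WT + IgG, 56.6, 100, 107 and 120 in IL-38 KO + IgG and 43.3, 33.1, 38.1 and 33.1 in IL-38 KO + anti-γδTCR, again below all 8 (−0.95, SE 0.23, adjusted p = 0.0117). Mcm6, a subunit of the replicative helicase, was 1.74-fold lower and the mitotic kinase Plk1 1.43-fold lower, and IL-38 KO + IgG replicate 4 had 519 and 888, above every WT + IgG library. The mean log2 level of the list relative to WT + IgG was −0.80 to −0.18 in IL-38 KO + anti-γδTCR, −0.10 to 0.36 in IL-38 KO + IgG replicates 1 to 3 and 0.37 in replicate 4. The interval lay inside 2-fold for 17 of the 26 genes, 2 of them called. The count of 8 fell to 3 without WT + IgG replicate 1 or IL-38 KO + anti-γδTCR replicate 2 or 4, to 4 and 5 without WT + IgG replicates 2 and 3, and was 13 without IL-38 KO + anti-γδTCR replicate 3.

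Beyond this list, 117 called genes lay outside all 8 libraries with IgG in every IL-38 KO + anti-γδTCR library while IL-38 KO + IgG replicate 4 was within 0.3 of the WT + IgG mean on the scale above. Of these, 47 were higher, 70 were lower and 111 were protein-coding. Their number follows from these conditions and no test was made of it. The 3 with the smallest p in each direction were looked up after their values were seen. Ly6c2, a surface antigen of inflammatory monocytes and lymphocytes, had 141, 123, 103 and 82.7 in WT + IgG, 55.9, 59.8, 95.3 and 103 in IL-38 KO + IgG and 23.6, 18.3, 27.2 and 39.7 in IL-38 KO + anti-γδTCR (log2 fold change −2.03, SE 0.29, adjusted p = 0.000225). Fam111a, a protease of replicating cells, had 767 to 971 in WT + IgG and 228 to 434, and Vdac3, a channel of the outer mitochondrial membrane, 227 to 264 and 108 to 132. Of the higher genes, Thra, a thyroid hormone receptor, had 566 to 651 in WT + IgG and 879 to 1112, Os9, a lectin of the endoplasmic reticulum, 1509 to 2126 and 2854 to 3111, and Gm20696 62.2 to 83.2 and 149 to 215. In IL-38 KO + IgG, Fam111a had 656 to 911, Vdac3 155 to 328, Thra 512 to 700, Os9 1898 to 2522 and Gm20696 72.8 to 109. Replicate 4 of that group lay outside the WT + IgG range for Fam111a (656), Vdac3 (195) and Thra (700). Its replicates 1 to 3 lay above that range for Os9. With the sheet term Ly6c2 had a log2 fold change of −2.61 and Thra of 0.39, with adjusted p of 0.219 and 0.618.

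Skeletal muscle genes were higher in IL-38 KO + anti-γδTCR than in WT + IgG. Of 13 tested, 9 were called higher and 0 lower (11.4% of all tested genes were higher), with a median log2 fold change of 3.28. Ckm, the creatine kinase of muscle, had 0, 4.54, 21.3 and 3.06 in WT + IgG, 31.8, 129, 97.1 and 11 in IL-38 KO + IgG and 81.3, 33.1, 132 and 249 in IL-38 KO + anti-γδTCR (log2 fold change 4.38, SE 0.83, adjusted p = 0.00229). The first and last groups did not overlap, IL-38 KO + IgG replicates 1 to 3 lay above WT + IgG, and replicate 4 lay within it. Myh2, a myosin of fast fibers, had 3.11 to 11.4 against 20.6 to 150 (2.99, SE 0.57, adjusted p = 0.00225), the actin cross-linker Actn3 was 8.37-fold higher and the troponin Tnnt3 9.68-fold. The mean log2 level of the list relative to WT + IgG ran from −2.69 to 1.08 within WT + IgG and from 1.46 to 4.73 in IL-38 KO + anti-γδTCR. In IL-38 KO + IgG it was 1.42 to 3.78 in replicates 1 to 3 and −0.59 in replicate 4. The count of 9 was 5 without IL-38 KO + anti-γδTCR replicate 3 or 4. The part of these muscle transcripts in other differences was not tested.

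Il1f10 itself was listed without a read in any of the 12 libraries and is no check on the genotype labels. The receptor subunit Il1rl2, through which IL-36 cytokines signal, had 90.9, 114, 49.4 and 76.5 in WT + IgG and 47.2, 75.4, 52.6 and 67.2 in IL-38 KO + anti-γδTCR, which overlapped (log2 fold change −0.41, 95% interval −1.02 to 0.21). Il1rapl1, another candidate receptor of IL-38, had at most 1.51 in any of the 12 libraries and was not tested. Of 13 tested genes of the IL-1 family and its receptors, 2 were higher and 2 were lower, near the 11.4% and 8.52% of all tested genes. Il1b, the inflammatory cytokine IL-1β, had 190, 210, 117 and 150 in WT + IgG and 846, 508, 600 and 376 in IL-38 KO + anti-γδTCR, with 382 in IL-38 KO + IgG replicate 4 and 41.0 to 128 in replicates 1 to 3 (log2 fold change 1.77, SE 0.25, adjusted p = 0.000225). Its receptor Il1r1 had 83.9, 107, 66.5 and 88.0 against 118, 217, 178 and 165. These were above all 8 libraries with IgG, in which replicate 4 of IL-38 KO had 99.3 (0.95, SE 0.23, adjusted p = 0.00999). Il1rn, the IL-1 receptor antagonist, had 982, 1315, 845 and 728 against 409, 447, 651 and 381, with 450 in IL-38 KO + IgG replicate 4 (−1.03, SE 0.21, adjusted p = 0.0032). Il1a, which encodes IL-1α, had 12.4, 34.1, 11 and 16.1 in WT + IgG and a value above 0 in 1 of the 4 IL-38 KO + anti-γδTCR libraries, 3.31 in replicate 4 (adjusted p = 0.00103).

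Of 13 tested genes of epithelial responses to IL-17 and IL-1, 2 were higher (11.4% of all tested genes), 0 were lower, 1 was inside 2-fold and 10 were neither. Nfkbiz, a nuclear cofactor induced by both cytokines, had 160, 169, 152 and 154 in WT + IgG and 400, 388, 397 and 257 in IL-38 KO + anti-γδTCR, with 362 in IL-38 KO + IgG replicate 4 (log2 fold change 1.16, SE 0.17, adjusted p = 0.000301). Ccl20, which attracts Ccr6+ lymphocytes, had 0 in WT + IgG and 10.5, 12.6, 20 and 5.51 in IL-38 KO + anti-γδTCR, at least 18-fold higher, and 15.4 in IL-38 KO + IgG replicate 4 (adjusted p = 0.000319).

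The Notch genes called higher were about as frequent as among all tested genes. Among 14 tested ligands, receptors and targets, 2 were called higher and 0 lower (11.4% and 8.52% of all tested genes). An unadjusted limma p under 0.05 was reached by 6 of them, and by 5197 of all 16427 tested genes. Inside 2-fold were 5 (35.7%, compared with 55.6% of all tested genes), 7 were neither, and the median log2 fold change was 0.38. edgeR called 1 of the 14 and DESeq2 3. Dll1, a Delta-like ligand, had 45.1, 42.4, 55.5 and 78.1 in WT + IgG, 122, 81.2, 139 and 100 in IL-38 KO + IgG and 78.7, 110, 97.9 and 89.2 in IL-38 KO + anti-γδTCR. The first and last groups did not overlap, by a gap of less than 1 normalized count, and the 2 IL-38 KO groups did (log2 fold change against WT + IgG 0.78, SE 0.24, adjusted p = 0.0402). The call was lost with any of 6 single libraries left out, with edgeR (adjusted p = 0.0577) and with TMM scaling, quantile normalization, thinned WT + IgG reads or no filter on low values, and the log2 fold change was 0.93 with the sheet term. The ligands Jag1 and Dll4 were not called, at 0.65 (interval 0.14 to 1.17, adjusted p = 0.0750) and 0.74 (interval 0.03 to 1.45, adjusted p = 0.141).

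Of the receptors, Notch2 had 350, 287, 363 and 395 in WT + IgG and 414, 482, 726 and 564 in IL-38 KO + anti-γδTCR, with 564 in IL-38 KO + IgG replicate 4 (log2 fold change 0.62, SE 0.18, adjusted p = 0.0273). The call was lost without WT + IgG replicate 1 or 2 or IL-38 KO + anti-γδTCR replicate 3 or 4. Notch1, with 1204, 1238, 1313 and 1075 against 1270, 1697, 1580 and 1025, stayed inside 2-fold (0.18, interval −0.17 to 0.53), and Notch3 and Notch4 were neither called nor inside 2-fold (0.53 and 0.74, adjusted p = 0.145 and 0.108). Hes1, the transcriptional repressor that is the standard Notch target, had 816, 683, 603 and 628 in WT + IgG, 706, 1264, 1305 and 895 in IL-38 KO + IgG and 629, 1248, 711 and 669 in IL-38 KO + anti-γδTCR. It stayed inside 2-fold (0.21, interval −0.24 to 0.65), with replicate 2 of the last group above every WT + IgG library. The target Heyl had 68.4, 47.7, 32.9 and 39.0 against 57.7, 41.1, 32.6 and 104 and could not be placed (0.23, interval −0.57 to 1.03).

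Of 31 tested genes of a Hallmark Notch list, which was set down from memory of the public gene set and may differ from it, 4 were higher, 1 was lower (11.4% and 8.52% of all tested genes) and 20 (64.5%) were inside 2-fold, compared with 55.6% of all tested genes, with a median of 0.22. Lfng, a glycosyltransferase that tunes which ligands a Notch receptor answers to, had 148, 130, 186 and 126 in WT + IgG and 437, 404, 667 and 435 in IL-38 KO + anti-γδTCR, with 408 in IL-38 KO + IgG replicate 4 and 96.2 to 160 in replicates 1 to 3 (log2 fold change 1.70, SE 0.19, adjusted p = 3.80e-05). Dtx4, a ubiquitin ligase of the pathway, had 449 to 524 against 218 to 265, below all 8 libraries with IgG (−0.96, SE 0.13, adjusted p = 0.000137). St3gal6, a sialyltransferase, had 42.5 to 67.6 against 85.2 to 129, above all 8 (0.98, SE 0.24, adjusted p = 0.0103).

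Most transcripts of a γδ T cell list were too few to test, and none that were tested separated the groups. Of its 20 genes in the table, 6 passed the filter on low values, 0 were called by limma (0 had an unadjusted p under 0.05), edgeR or DESeq2, 2 were inside 2-fold and 4 were neither. Trdc, the constant region of the δ chain, had 21, 9.84, 20.6 and 1.53 in WT + IgG, 8.49, 4.13, 7.56 and 0 in IL-38 KO + IgG and 5.25, 13.7, 3.63 and 9.92 in IL-38 KO + anti-γδTCR. All 3 groups overlapped, and the interval of the log2 fold change ran from −1.87 to 1.13. Sox13, a transcription factor of IL-17 producing γδ T cells that is also made by other cells, stayed inside 2-fold (interval −0.19 to 0.84). Zbtb16, another such factor, was not placed (0.39, interval −0.82 to 1.61), with 348 in IL-38 KO + anti-γδTCR replicate 2 and 46.3 to 86.6 in the others. These reads count transcripts and do not measure blockade of the receptor.

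Of 15 genes of the T cell receptor, CD3 and its signaling, 2 were lower (8.52% of all tested genes), 0 were higher, 5 were inside 2-fold and 8 were neither. Trac, the constant region of the α chain, had 19.4, 15.9, 33.6 and 33.7 in WT + IgG and 36.7, 20.6, 25.4 and 25.3 in IL-38 KO + anti-γδTCR, an overlap with a log2 fold change of 0.11 (interval −0.64 to 0.86). The kinase Lck also stayed inside 2-fold (−0.83 to 0.40). Cd28, the costimulatory receptor, had 36.5, 51.5, 50.7 and 49.8 against 13.1, 13.7, 1.81 and 8.81, with 16.6 in IL-38 KO + IgG replicate 4 (−2.45, SE 0.50, adjusted p = 0.00346). Lat, an adaptor of the T cell receptor, had 36.3 to 44.4 against 1.81 to 17.6, with 8.83 in that replicate (−2.17, SE 0.53, adjusted p = 0.0121). Of 11 tested genes of cytotoxic and NK cells, 1 was lower (8.52% of all tested genes), 0 were higher, 1 was inside 2-fold and 9 were neither. The lower gene was Ccl5, a chemokine of effector T cells, with 149, 148, 146 and 214 against 72.1, 105, 67.1 and 107 and 66.5 to 114 in IL-38 KO + IgG (−0.91, SE 0.22, adjusted p = 0.0116). Nkg7, of cytotoxic granules, stayed inside 2-fold (0.01, interval −0.80 to 0.82).

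Xcl1 had 13.2, 9.84, 8.91 and 9.19 in WT + IgG, 19.1, 14.4, 35.5 and 17.7 in IL-38 KO + IgG and 3.93, 12.6, 20 and 17.6 in IL-38 KO + anti-γδTCR. The last group overlapped both others, and its difference from WT + IgG had an interval too wide to place it (log2 fold change 0.19, −0.86 to 1.24). Of 12 genes of cDC1, which carry the receptor of Xcl1, 4 were lower, 2 were higher (8.52% and 11.4% of all tested genes) and 2 were inside 2-fold. That receptor, Xcr1, named after its values were seen, was neither called nor inside 2-fold (1.56, 95% interval 0.12 to 3.0, adjusted p = 0.126). Irf8, a transcription factor needed by cDC1 and present in other myeloid cells, had 1340, 1747, 1200 and 961 in WT + IgG and 379, 357, 341 and 360 in IL-38 KO + anti-γδTCR, with 300 in IL-38 KO + IgG replicate 4 (−1.83, SE 0.17, adjusted p = 5.52e-06). Batf3, its partner, was 3.98-fold lower, Wdfy4, needed for cross-presentation, 2.37-fold and the hydrolase Naaa 2.27-fold. Tlr3, the receptor for double-stranded RNA, and Zbtb46, a factor of conventional dendritic cells, stayed inside 2-fold (intervals −0.35 to 0.42 and −0.46 to 0.45). The 2 higher members, named after their values were seen, were Cadm1, an adhesion molecule that epithelial cells also make (0.81, SE 0.18, adjusted p = 0.00752), and Snx22 (1.16, SE 0.34, adjusted p = 0.031). The list's summed normalized count was 2743 to 3731 in WT + IgG, 2274 to 3294 in IL-38 KO + anti-γδTCR and 2202 in IL-38 KO + IgG replicate 4.

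Of 11 tested neutrophil genes, 1 was lower and 1, Il1b, was higher (8.52% and 11.4% of all tested genes). Mmp8, the neutrophil collagenase, had 2611, 3697, 2432 and 1961 in WT + IgG, 69.5 in IL-38 KO + IgG replicate 4 and 54.0 in IL-38 KO + anti-γδTCR replicate 4, with 0 in the other 3 libraries of that group (adjusted p = 2.31e-05). Of 7 tested genes of B and plasma cells, 2 were higher (11.4% of all tested genes) and 0 were lower. Their median log2 fold change was 0.47, and −1.49 with the sheet term. Jchain, which joins polymeric antibodies, had 10.1, 33.3, 20.6 and 6.89 against 123, 89.1, 63.5 and 51.8, and 491 in IL-38 KO + IgG replicate 4 (log2 fold change 2.30, SE 0.46, adjusted p = 0.00311). Igkc, the κ light chain, had 124, 600, 239 and 108 against 1856, 738, 437 and 949, which overlapped, and 4047 in that replicate (2.04, SE 0.52, adjusted p = 0.0145). For both genes the highest of the 12 libraries was IL-38 KO + IgG replicate 4, a single library.

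In several pathways most intervals lay inside 2-fold. Of 22 interferon-stimulated genes, 19 (86.4%) were inside 2-fold, compared with 55.6% of all tested genes, and 3 were neither. None was called by limma, edgeR or DESeq2, and 3 had an unadjusted p under 0.05 in limma, with a median log2 fold change of −0.24. The list's mean log2 level relative to WT + IgG was −0.43, 0.31, −0.40 and −0.41 in IL-38 KO + anti-γδTCR and −0.14 to 0.10 in WT + IgG, so that 3 of the 4 libraries lay below WT + IgG and replicate 2 above. Without replicate 2 the median was −0.37, 7 of the 22 were called lower and 16 were inside 2-fold. In IL-38 KO + IgG the list's level was −0.65 to −0.35 in replicates 1 to 3 and −0.71 in replicate 4. Stat2 and Irf7, transcription factors of the interferon response, stayed inside 2-fold (intervals −0.44 to 0.26 and −0.54 to 0.23). Of 16 MHC genes, 12 (75%) were inside 2-fold, 1 was higher and 1 was lower (11.4% and 8.52% of all tested genes). The class II chain H2-Aa had 5076, 4615, 5320 and 6159 against 5554, 4934, 5271 and 5172 (interval −0.29 to 0.27), and the invariant chain Cd74 an interval of −0.19 to 0.38. The 2 called members were H2-DMa, which loads peptides on class II, with 442 to 750 against 147 to 243 and 214 in IL-38 KO + IgG replicate 4 (−1.66, SE 0.20, adjusted p = 6.84e-05), and the immunoproteasome subunit Psmb9, with 339 to 663 against 711 to 1330 and 812 in that replicate (0.86, SE 0.23, adjusted p = 0.0197).

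Of 19 genes of cholesterol and fatty acid synthesis, 15 (78.9%) were inside 2-fold and 1 was lower (8.52% of all tested genes). It was Mvd, a decarboxylase of the mevalonate pathway (−0.82, SE 0.21, adjusted p = 0.0162). Of 39 cytosolic ribosomal protein genes, 33 (84.6%) were inside 2-fold, 7 were lower (8.52% of all tested genes) and 0 were higher, with 4 in both counts and a median of −0.16. Rpl37 had 13091, 14830, 12821 and 13120 against 7347, 6706, 9606 and 7505, with 10507 in IL-38 KO + IgG replicate 4 (−0.80, SE 0.15, adjusted p = 0.00246), and Rpl6 stayed inside 2-fold (−0.46 to 0.10). Of 25 nuclear genes of oxidative phosphorylation, 22 (88.0%) were inside 2-fold, 8 were lower and 1 was higher (8.52% and 11.4% of all tested genes), with 6 in both counts and a median of −0.27. The lower genes of these 2 lists numbered 2 to 7 and 3 to 9 with any 1 library left out. Cox5a, a subunit of cytochrome c oxidase, had 1505, 1718, 1586 and 1502 against 792, 858, 776 and 878 and 846 in IL-38 KO + IgG replicate 4 (−0.93, SE 0.11, adjusted p = 4.98e-05). Of 10 mitochondrially encoded genes, 8 were inside 2-fold and 1 was higher (11.4% of all tested genes), mt-Nd5 (0.77, SE 0.19, adjusted p = 0.0145). Glycolysis and hypoxia genes (22 tested, 2 higher, 3 lower, 13 inside 2-fold) and heat shock genes (16 tested, 3 higher, 1 lower, 14 inside 2-fold) had medians of −0.03 and −0.04. Over all tested genes, 11.4% were higher, 8.52% lower and 55.6% inside 2-fold. Of 11 tested histone genes, 1 was lower (8.52% of all tested genes) and 4 were inside 2-fold (55.6%).

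**Figure D4:**
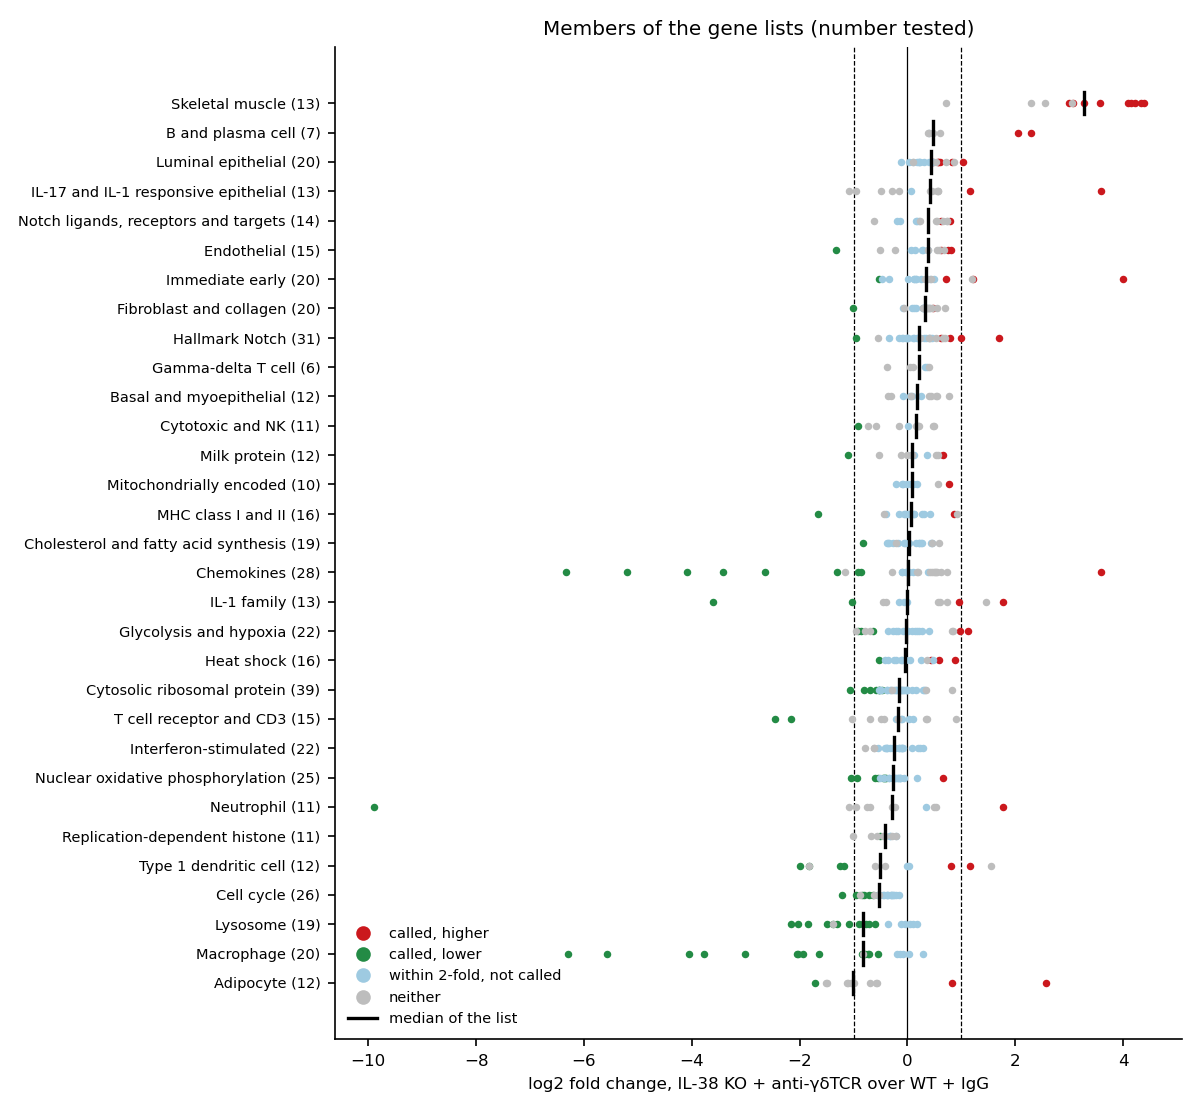
Log2 fold change of IL-38 KO + anti-γδTCR over WT + IgG for each tested member of 31 gene lists, ordered by the list's median (black bar), with the number tested in brackets and dashed lines at 2-fold. Members of the interferon-stimulated list lie within 1 log2 unit of 0, while the macrophage list reaches −6.29 and the skeletal muscle list has a median of 3.28.

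The epithelial markers of the tumors were present in every library. Of 20 luminal epithelial genes, 13 (65.0%) were inside 2-fold, 6 were higher (11.4% of all tested genes) and 0 were lower, with 3 in both counts and a median of 0.43. The count of 6 fell to 2 without WT + IgG replicate 1 or 2 or IL-38 KO + anti-γδTCR replicate 4, and to 3 without IL-38 KO + anti-γδTCR replicate 2. The keratin Krt18 had 3016, 3448, 3962 and 4147 in WT + IgG and 4307, 4148, 3696 and 4799 in IL-38 KO + anti-γδTCR, and the luminal transcription factor Gata3 had 2842 to 3805 and 3564 to 4467. Both stayed inside 2-fold (intervals −0.08 to 0.53 and 0.01 to 0.60). Cldn7, a claudin of tight junctions, had 689, 754, 1106 and 542 against 1248, 1239, 1533 and 1304, above all 8 libraries with IgG (0.83, SE 0.19, adjusted p = 0.00786). Cdh1, which encodes E-cadherin, was 1.49-fold higher (adjusted p = 0.042), Cldn4, another claudin, was also higher (adjusted p = 0.0101), and the protease inhibitor Spint2 2.03-fold (adjusted p = 0.0272), with 822 to 1337 in IL-38 KO + IgG. Of 12 basal and myoepithelial genes, 4 were inside 2-fold and none was called by limma (0 had an unadjusted p under 0.05), edgeR or DESeq2. Of 12 milk protein genes, 1 was higher and 1 was lower (11.4% and 8.52% of all tested genes). Btn1a1 was higher (0.66, SE 0.19, adjusted p = 0.0317) and Plin2, which coats lipid droplets, was lower, with 3869 to 5967 against 1978 to 2680 (−1.11, SE 0.16, adjusted p = 0.000225).

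In the stroma, 1 of 20 fibroblast and collagen genes was higher, 1 was lower (11.4% and 8.52% of all tested genes) and 9 were inside 2-fold. Of 15 endothelial genes, 3 were higher and 1 was lower (11.4% and 8.52% of all tested genes). None was higher without WT + IgG replicate 1 or 2 or IL-38 KO + anti-γδTCR replicate 2 or 4, and 1 was without WT + IgG replicate 3 or IL-38 KO + anti-γδTCR replicate 1. Vwf, the von Willebrand factor of vessels and platelets, had 127, 201, 136 and 174 against 44.6, 65.1, 63.5 and 80.4, with 65.1 in IL-38 KO + IgG replicate 4 (−1.33, SE 0.23, adjusted p = 0.0013). The VEGF receptor Flt1 had 201, 231, 265 and 370 against 376, 413, 385 and 430, above all 8 libraries with IgG (0.62, SE 0.18, adjusted p = 0.0284). Plvap and Robo4, of vessel walls, rose by 0.76 (SE 0.21) and 0.81 (SE 0.26) with overlapping groups (adjusted p = 0.025 and 0.0467). Of 12 adipocyte genes, 2 were higher, 1 was lower (11.4% and 8.52% of all tested genes) and 9 were neither called nor inside 2-fold. The median log2 fold change was −1.02, and only the 2 higher genes had a positive value. Without IL-38 KO + anti-γδTCR replicate 4, 7 were called lower. The regulator Pparg had 26.4 to 44.4 against 154 to 261 and 209 in IL-38 KO + IgG replicate 4 (2.56, SE 0.23, adjusted p = 6.12e-06), Acsl1 was 1.78-fold higher, and Fabp4 was lower with overlapping groups (−1.72, SE 0.56, adjusted p = 0.0485). edgeR and DESeq2 called 0 of the adipocyte genes lower. Of 20 immediate early genes, 3 were higher and 1 was lower (11.4% and 8.52% of all tested genes). Jun had 1612, 1547, 1810 and 1489 against 2913, 2785, 3011 and 2017, above all 8 libraries with IgG (0.72, SE 0.14, adjusted p = 0.00337). Nr4a1, a nuclear receptor induced by stimulation, was 2.32-fold higher (adjusted p = 0.00827), Fosl1 had 0 to 6.17 against 16 to 60.3 and 55.2 in IL-38 KO + IgG replicate 4, and Klf6 was 1.44-fold lower (adjusted p = 0.0283).

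**Figure D5:**
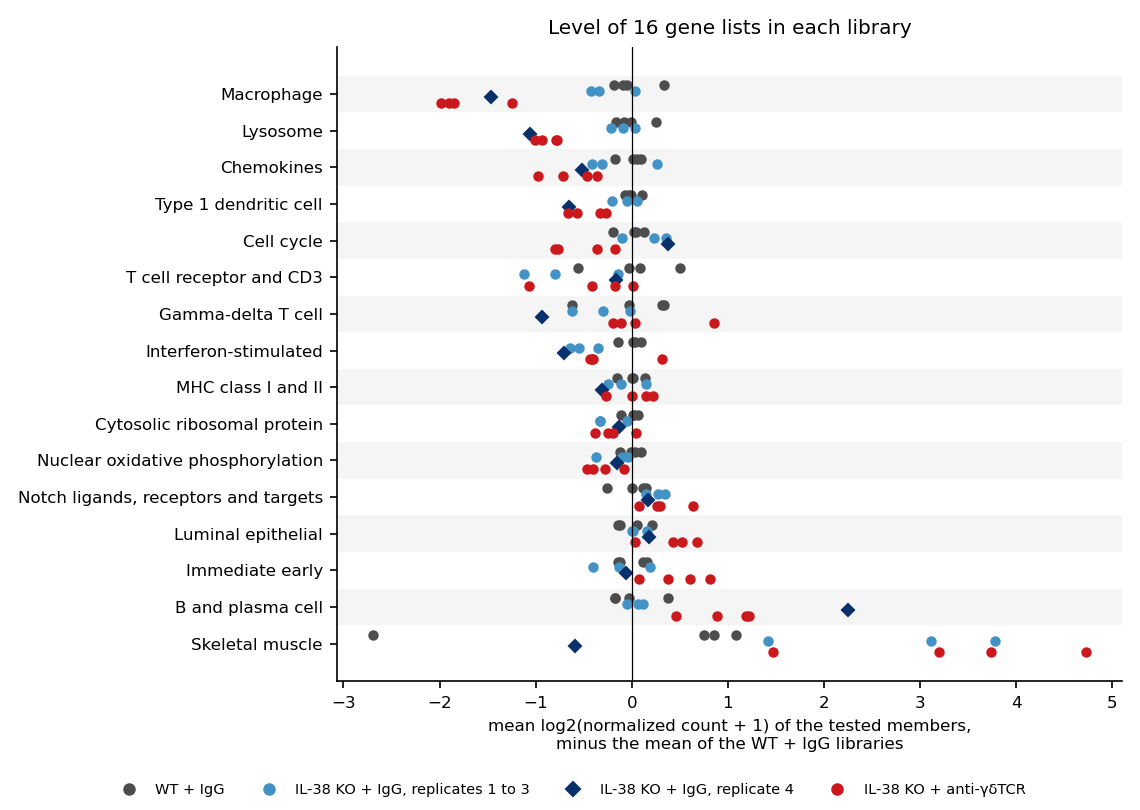
Mean log2(normalized count + 1) of the tested members of 16 gene lists in each of the 12 libraries, minus the mean of the WT + IgG libraries. For the macrophage and lysosome lists IL-38 KO + IgG replicate 4 (diamond) lies with IL-38 KO + anti-γδTCR. For the cell cycle list it lies above WT + IgG at 0.37, while IL-38 KO + anti-γδTCR spans −0.80 to −0.18.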

How the data were processed

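The authors prepared libraries from 500 ng of TRIzol RNA of dissociated tumors with QuantSeq, sequenced them as single reads of 75 cycles and ran the QuantSeq pipeline of BlueBee Genomics. The submitters' processing notes name STAR, HTSeq, DESeq2 and GRCm39, with no versions. The deposited signal values are normalized counts, which the authors obtained by dividing the reads of each library by 1 size factor, separately in a table of 19 libraries and a table of 8. The 4 IL-38 KO + IgG libraries stand in both tables with identical reads.

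Each column was divided by its smallest nonzero value, the value of 1 read, which gave whole reads for 100% of values within 0.0001%. For WT + IgG replicate 1 the value was 0.996, so close to 1 that the division changed its values little. The 8 libraries were renormalized together by median-of-ratios size factors, and the 4 IL-38 KO + IgG libraries were placed on that scale. Genes with a mean of at least 5 were tested by limma 3.58.1 (R 4.3.3, trend, two-sided) after adding a pseudocount of 1 and taking log2, with Benjamini-Hochberg adjustment over all 16427 genes and a threshold of 0.05. Adjusted p-values with no tool beside them are those of limma, and fold changes on this scale understate those of genes with few reads. edgeR 4.0.16 and DESeq2 1.42.0 on the whole reads were alternatives, besides the pseudocount, the filter, the scaling, thinning of the WT + IgG reads to a total of 7909753, the replicate number as a block, the sheet term and leaving out each library. Library shares were compared with two-sided exact permutation tests over the 70 splits. Lists were counted and not tested.

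Totals per library were 6273049 to 15879164 reads. A count of 0 was taken as a limit of 3 counts, and limits cover counting error only, since the protocol names no molecular identifiers that would tell molecules from copies. The labels do not say that the tumors of a group came from separate mice, so p-values measure the spread between these samples. No pair among the 8 libraries agreed within sampling noise (chi-square per degree of freedom 17.1 or more, over genes with enough reads in the pair). Pairs with an IL-38 KO + IgG library were not checked. Symbols and gene types of 47224 of 47643 identifiers came from GENCODE M21, and promoters from RefSeq on GRCm38.p6. The fit was tested on simulated counts.

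Genes named are those with primers in the study, up to 12 protein-coding genes in each direction with the smallest p and groups that do not overlap, up to 3 genes of other types in each direction and up to 4 members of a list by smallest p, or by narrowest interval inside 2-fold. The 2 groups, the lists and the rule were chosen with earlier results of these data known. Some genes that this rule names are not reported here. The authors' own comparisons were not used.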

Additional observations from a re-analysis of the deposited data

Results flagged for a closer look

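In a group of 4 libraries, a library was singled out where its gap to the nearest other took up more of the group's range than Dixon's critical value for 4 values at the 95% level allows. This happened in 22 of 405 groups examined, and chance alone does so in about 1 in 20.

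IL-38 KO + anti-γδTCR replicate 4 stood nearest to WT + IgG for Csf2rb (normalized count 154), Rac2 (141), Nfkbiz (257), Il1a (3.31) and Mmp8 (54.0), and was lowest for Klf6 (1078) and highest for the fibroblast and collagen list (mean log2 1.12 above the WT + IgG mean). In the same group, replicate 3 was highest for Lfng (667) and for the histone list (0.41), and replicate 2 for the interferon-stimulated list (0.31).

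Within WT + IgG, replicate 4 was highest for Ccl5 (214), for the fibroblast and collagen list (0.52) and for the share of genes with a single read (6.66%), and lowest for Pcna (299). Replicate 2 was highest for Rpl37 (14830) and for the share of reads on small RNAs (3.98%). Replicate 1 was lowest for Cd28 (36.5) and for the skeletal muscle list, at −2.69.

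IL-38 KO + IgG replicate 4 stood apart from replicates 1 to 3 of its group in the share of reads on processed pseudogenes (1.46%) and on protein-coding genes (83.1%) and in the level of the B and plasma cell list (2.25). IL-38 KO + IgG replicate 1 was lowest for the Hallmark Notch list (0.049). No explanation of these values was tested.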

How the results depend on the processing

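The number of called genes was 2492 to 3681 and that of genes inside 2-fold 8263 to 10351 under every alternative run, except with the sheet term, where 0 genes were called and 4352 lay inside 2-fold, and with a limit of 1.5-fold, where 3719 did. Leaving out 1 library gave 2492 to 3221 called. Higher genes made up 57.2% of those called, and 1630 of 3409 (47.8%) with quantile normalization. With the replicate number as a block 2807 genes were called; the numbers do not pair the libraries (correlation of deviations −0.12 to 0.095), and the call of Dll1 was lost (adjusted p = 0.075).

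The sheet term rests on IL-38 KO + IgG replicate 4 and turned the sign of the log2 fold change of Il1rl2 (0.401), Bri3 (−0.250), Gm11983 (−0.324), Mgat4b (−0.118), Ctsl (0.0368), Ctsa (0.320), Ccl3 (0.214), Nfkbiz (−0.189), Ccl20 (−0.446), Il1b (−0.527), Trdc (2.53), Jchain (−1.49), Igkc (−1.97), Fosl1 (−0.729), Pparg (−0.359), Acsl1 (−0.453), Btn1a1 (−0.0775), Psmb9 (−0.0110), Mvd (0.200) and Gm42418 (−0.0286). With the sheet term, another 97 genes named here lost their call or their place inside 2-fold. For genes inside 2-fold and not called, a turn of sign was not looked for. Xcl1 turned to −0.376 with quantile normalization and was −0.0567 to 0.645 with 1 library left out. Leaving out 1 library gave Heyl −0.0840 to 0.461 and Zbtb16 −0.243 to 0.718. The median of 6 of the 31 lists turned sign with the sheet term (cytotoxic and NK, B and plasma cell, milk protein, IL-1 family, chemokine and lysosome), and 15 medians moved by more than the spread between libraries. The causes were not tested.

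Single libraries also decided the calls of Cdh1, Spint2, Plvap, Flt1, Robo4, Fabp4, Btn1a1, Klf6, Plk1, Snx22, Psmb9, Mvd and mt-Nd5, which were lost without at least 1 of them, and the place of Cd14, Ctsk, Lck, Nkg7 and Trac inside 2-fold. The lower depth of IL-38 KO + anti-γδTCR limits genes with few reads, such as those of γδ T cells.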
